A study of Homo sapiens with 6 samples.

Results

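The genes described here are 10 markers and regulators of the epithelial-mesenchymal transition (EMT): the transcription factors SNAI1, SNAI2, TWIST1, TWIST2, ZEB1, ZEB2 and PRRX1, and the mesenchymal products VIM, CDH2 and FN1. They were chosen by name among the 27745 genes of an RNA-seq count table, each matched through its Ensembl gene identifier with the version removed, and the rule itself uses no measured value, although earlier results of these data were known when the genes were proposed. All 10 were found, and 7 of them were among the 15372 genes that passed a filter on low counts and were tested. TWIST1, TWIST2 and PRRX1 did not pass it.

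The RNA came from MDA-MB231 cells, a human triple-negative breast cancer line with a mesenchymal shape. All 6 samples were infected with a lentivirus and collected 72 h after infection. The 2 control samples carried sh-TRC, a control whose insert the paper does not describe. The others carried a short hairpin RNA (shRNA) in the vector pLKO.1, 2 samples sh-MIR100HG-1 and 2 samples sh-MIR100HG-2. Both shRNAs target MIR100HG, the long noncoding RNA that hosts miR-100, let-7a-2 and miR-125b-1. The comparisons ask whether the EMT genes differed when MIR100HG was knocked down, with each shRNA against the control, with both together, and between the shRNAs. The cells are 1 line, and the samples of a group are 2 biological replicates of it. The p-values set a difference between groups against the spread between such samples.

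EMT is the change by which epithelial cells lose their junctions and gain motility. SNAI, ZEB and TWIST proteins bind E-box sequences and repress junction genes such as CDH1 (E-cadherin), and the ZEB proteins and the miR-200 family repress each other. Vimentin (VIM), fibronectin (FN1) and N-cadherin (CDH2) are the products by which the mesenchymal state is usually read. MDA-MB231 is known as a line that has already undergone much of this change.

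Total counts per sample ran from 43804736 to 64588388, and 3 counts, the limit that a count of 0 allows, corresponded to 0.0452 to 0.0708 CPM (counts scaled to library size, with the trimmed mean of M-values, TMM, as the scaling). These limits cover counting error only. MIR100HG, the targeted gene, was at 41.9 and 58.5 CPM in the controls, 15.2 and 13.2 CPM with sh-MIR100HG-1 and 16.6 and 10.4 CPM with sh-MIR100HG-2. All 4 knockdown samples were below both controls, with a log2 fold change of -1.86 (SE 0.25, unadjusted p = 5.6e-05, adjusted p = 0.381). These p-values are from edgeR's quasi-likelihood test, adjusted by Benjamini and Hochberg's method over all genes tested. An exact two-sided permutation test gave p = 0.0667, the smallest that 4 samples against 2 allow. In RNA from whole cultures, fewer cells that express a gene and less RNA per cell cannot be told apart.

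The mesenchymal markers listed for the line were high and its hormone receptors low, while luminal markers ran from low to abundant. On a scale of CPM per kb of exon, which allows genes to be compared, AXL was at 194 to 301, CD44 at 53.5 to 95.2, CAV1 at 121 to 182 and MSN at 199 to 324 over the 6 samples. The oestrogen receptor ESR1 was at 0.00879 to 0.204 and the progesterone receptor PGR at 0 to 0.00153. ERBB2, the gene of the receptor HER2, was at 6.94 to 11.3, and in the controls above 70.6% of the genes tested. The luminal keratins were abundant, with KRT8 at 103 to 171, KRT18 at 81.0 to 140 and KRT19 at 137 to 305. The luminal factors were lower, with GATA3 at 3.04 to 3.99 and FOXA1 at 0.00593 to 0.307. Among 6 fibroblast markers, DCN was at 0.00234 to 0.0159 CPM per kb, PDGFRA at 0 to 0.336, COL1A2 at 0.119 to 0.682, LUM at 0.181 to 0.973, PDGFRB at 0.877 to 2.66 and COL1A1 at 1.75 to 7.95. COL1A1, a chain of type I collagen, is outside the gene lists below and is given by sample because of its values. It was at 20.2 and 17.2 CPM in the controls, 46.5 and 45.5 CPM with sh-MIR100HG-1 and 62.6 and 78.0 CPM with sh-MIR100HG-2. All 4 knockdown samples were above both controls, and its log2 fold change of 1.60 (SE 0.21, adjusted p = 0.381) ranked 1 by p among all genes tested without being called.

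No member passed the test in any comparison. At an adjusted p of 0.05 or below, 0 of 7 tested members and 0 of 15372 genes (0%) were called by edgeR's quasi-likelihood test in each of the 4 comparisons. At an unadjusted p under 0.05 the knockdown against control held 0 of 7 members against 1180 genes (7.68%), sh-MIR100HG-1 against control 0 members against 1056 genes (6.87%), and sh-MIR100HG-2 against control 0 members against 1362 genes (8.86%). Between the shRNAs 1 member, SNAI2, was under 0.05, against 1453 genes (9.45%). No member had its 4 knockdown samples beyond both controls in 1 direction, which 2688 genes (17.5%) had. By DESeq2, 130 genes were called in the knockdown against control, and none was a member.

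The members covered a wide span of levels in the control cells. VIM was at 375 ± 44.4 CPM per kb (SD, n = 2), above 99.6% of the genes tested, and FN1 was at 36.3 ± 13.9, above 92.0%. SNAI2 at 12.1 ± 5.77, ZEB1 at 6.82 ± 2.43 and SNAI1 at 2.72 ± 1.37 CPM per kb were above 74.8%, 61.6% and 42.1% of genes. ZEB2 was at 0.910 ± 0.213 and CDH2 at 0.233 ± 0.101 CPM per kb, above 27.3% and 13.9% of genes. TWIST1 at 0.0935, TWIST2 at 0.0473 and PRRX1 at 0.0150 CPM per kb were lowest. The neighbours SNAI2 and ZEB1 overlapped in their 2 control samples, as did TWIST1 with TWIST2 and TWIST2 with PRRX1, whereas the other neighbours in this order did not. The length of a gene was that of its merged exons, 23707 bases for ZEB2 and 1686 for SNAI1, and a long merged model lowers the value per kb.

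**Figure D1:**
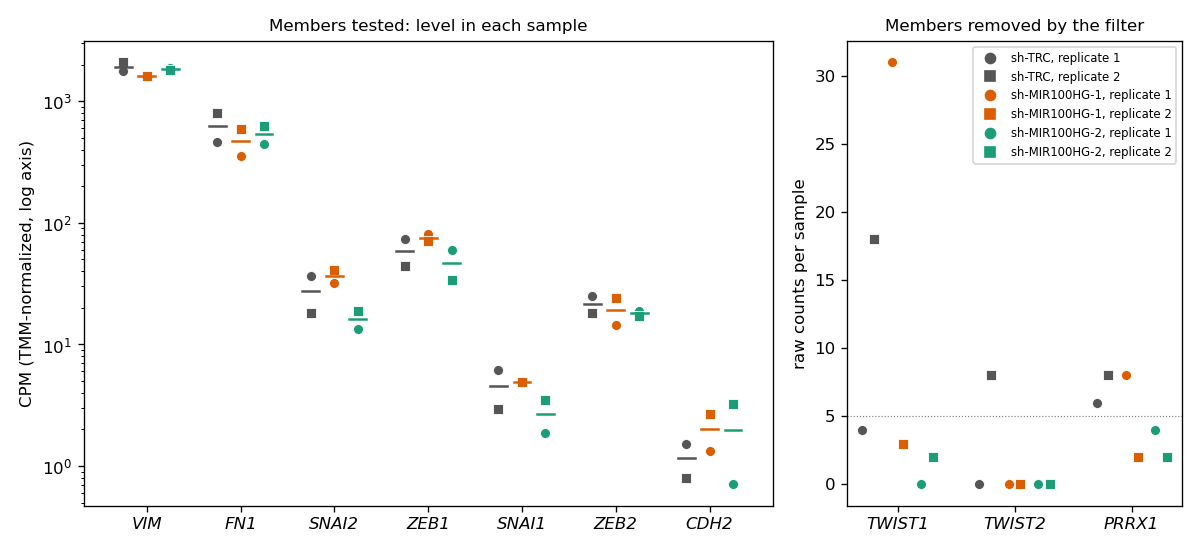
Level of the 10 EMT genes in each of the 6 samples. Left, CPM on a log axis for the 7 genes tested, with a bar at the mean of each group of 2; right, raw counts of the 3 genes that did not pass the filter, with a dotted line at 5 counts. The sh-MIR100HG-2 samples of SNAI1, SNAI2 and ZEB1 sit below both sh-MIR100HG-1 samples, and a control sample sits near each.

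The 2 control samples were themselves apart for most members. SNAI1 was 2.10 times, SNAI2 2.02 times, CDH2 1.89 times and ZEB1 1.67 times as high in control replicate 1 as in control replicate 2, and FN1 was at 0.574 times. In all, 5 of 7 tested members were at least 1.5-fold apart in the controls, against 4019 of all genes tested (26.1%), with the 1.5-fold limit chosen after the values were seen. VIM, at 0.846 times, and ZEB2, at 1.4 times, were closer. The biological coefficient of variation common to all genes was 27.8%.

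SNAI1 (Snail, ENSG00000124216.3_1, GRCh37 chr20:48599536-48605423, plus strand) is the zinc-finger repressor of CDH1 from which the SNAI family takes its name. It was at 6.22 and 2.96 CPM in the controls, 4.89 and 4.94 CPM with sh-MIR100HG-1 and 1.85 and 3.48 CPM with sh-MIR100HG-2. The controls enclosed both sh-MIR100HG-1 samples and 1 sh-MIR100HG-2 sample, and the other sh-MIR100HG-2 sample was the lowest of the 6. The log2 fold change of the knockdown against control was -0.34 (SE 0.40, 95% interval -1.26 to 0.58, adjusted p = 0.882). The shRNAs taken singly gave 0.10 (sh-MIR100HG-1) and -0.78 (sh-MIR100HG-2). Control replicate 1 decided the direction, since without it the knockdown value was 0.29.

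SNAI2 (Slug, ENSG00000019549.8_1, GRCh37 chr8:49830249-49834299, minus strand), its paralogue, also represses CDH1 and marks basal breast cells. Its level was 36.8 and 18.2 CPM in the controls, 32.2 and 41.3 CPM with sh-MIR100HG-1, and 13.4 and 18.9 CPM with sh-MIR100HG-2. Both sh-MIR100HG-2 samples lay near control replicate 2, and both sh-MIR100HG-1 samples lay near control replicate 1. The knockdown against control gave a log2 fold change of -0.18 (SE 0.31, 95% interval -0.88 to 0.53, adjusted p = 0.924), with 0.42 for sh-MIR100HG-1 and -0.77 (adjusted p = 0.579) for sh-MIR100HG-2. Without control replicate 1 the knockdown value turned to 0.42, and without control replicate 2 the value for sh-MIR100HG-1 was near 0 at -0.0048.

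Among the 7 tested members, SNAI2 differed most between the shRNAs. With sh-MIR100HG-2 it was at 0.440 times its level with sh-MIR100HG-1, a log2 fold change of -1.18 (SE 0.36, 95% interval -2.02 to -0.35, unadjusted p = 0.0110). Its p ranked 307 among the 15372 genes and the adjusted p was 0.509. The adjusted p ran from 0.148 to 0.800 over the alternatives other than the one with no filter on low counts, where it was 0.00792 with a log2 fold change of -1.16 and 679 genes were called in place of 0. Leaving out sh-MIR100HG-1 replicate 2 or sh-MIR100HG-2 replicate 1 brought its unadjusted p to 0.0544 and 0.0550.

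SNAI1 and ZEB1 had values of the same sign between the shRNAs. With sh-MIR100HG-2 relative to sh-MIR100HG-1 the log2 fold change was -0.88 for SNAI1 (SE 0.47, 95% interval -1.97 to 0.20, adjusted p = 0.561) and -0.68 for ZEB1 (SE 0.34, 95% interval -1.46 to 0.09, adjusted p = 0.552). In these 3 members both sh-MIR100HG-2 samples were below both sh-MIR100HG-1 samples, which held for 3586 genes (23.3%). VIM alone was the other way round, as were 3160 genes (20.6%), with a log2 fold change of 0.20 (95% interval -0.25 to 0.64, adjusted p = 0.731). ZEB2, CDH2 and FN1 overlapped between the shRNAs.

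**Figure D2:**
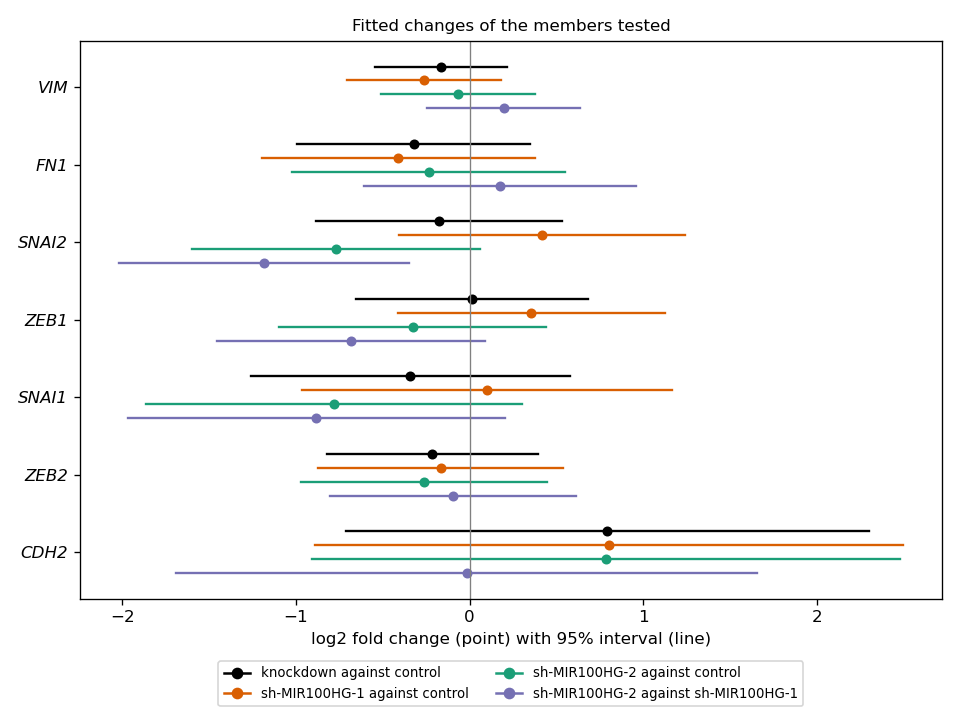
Fitted log2 fold change (point) with its 95% interval (line) for the 7 genes tested in the 4 comparisons, on a linear axis of log2 units. All intervals include 0 except that of SNAI2 between the shRNAs, -2.02 to -0.35, whose adjusted p was 0.509.

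ZEB1 (ENSG00000148516.21_2, GRCh37 chr10:31607424-31818742, plus strand) and ZEB2 (ENSG00000169554.17_2, GRCh37 chr2:145141648-145282150, minus strand) are zinc-finger homeobox repressors of CDH1 and of the miR-200 genes. ZEB1 was at 73.9 and 44.2 CPM in the controls, 80.6 and 70.5 CPM with sh-MIR100HG-1 and 60.01 and 34.1 CPM with sh-MIR100HG-2. Its knockdown log2 fold change was 0.01 (SE 0.29, 95% interval -0.65 to 0.68, adjusted p = 0.994), with 0.36 and -0.33 for the shRNAs in turn, and it was -0.31 without control replicate 2. ZEB2 was at 25.2 and 18 CPM in the controls, 14.6 and 23.9 CPM with sh-MIR100HG-1 and 18.7 and 17.3 CPM with sh-MIR100HG-2. Only 1 sample of each shRNA was outside the range of the controls, in both cases below it. The knockdown log2 fold change of ZEB2 was -0.21 (SE 0.27, 95% interval -0.82 to 0.39, adjusted p = 0.887), with -0.17 and -0.26 for the shRNAs in turn, and it was 0.045 without control replicate 1.

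The sequences by which miR-200 reads the ZEB transcripts are shown because they are the best known link between these factors and a microRNA. The mature miR-200 sequences (RefSeq, GRCh38.p14) fall into 2 groups by their seed, bases 2 to 8, in capitals:
hsa-miR-200b-3p: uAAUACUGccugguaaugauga
hsa-miR-200c-3p: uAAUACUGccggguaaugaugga
hsa-miR-200a-3p: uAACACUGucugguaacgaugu
hsa-miR-141-3p: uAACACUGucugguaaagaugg
The seed complement CAGTATT of the group with miR-200b was found on the transcript strand 6 times in the 3′ UTR of ZEB1 and 5 times in that of ZEB2, with 1 transcript per gene, the one with the longest 3′ UTR (2549 and 5370 bases). The first site of each in GRCh37, seed match in capitals, begins 369 and 392 bases after the stop codon:
ZEB1, chr10:31816550-31816578, plus strand: ttttatcttatCAGTATTatcactcttat
ZEB2, chr2:145146609-145146637, minus strand: ctaccatacatCAGTATTtttattattat
Of all 19284 genes with a 3′ UTR, 16.9% held at least 1 such match. FN1 held 2 and SNAI2 1, and the other members none. The seed of miR-200a and miR-141 had 3 matches in ZEB1, 4 in ZEB2 and 1 in TWIST2, against 19.2% of genes. The host transcript of miR-200c and miR-141, MIR200CHG, was listed at 0 counts in all 6 samples.

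The microRNAs within MIR100HG and the shRNAs themselves have seeds as well, and are shown because the hairpins differ between the groups by design and the microRNAs lie within the targeted gene. The levels of these microRNAs were not analysed here:
hsa-miR-100-5p: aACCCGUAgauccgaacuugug
hsa-let-7a-5p: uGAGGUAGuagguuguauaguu
hsa-miR-125b-5p: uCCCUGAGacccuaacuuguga
sh-MIR100HG-1, guide: aTTTAAGTacaaacagaggaa
sh-MIR100HG-2, guide: tTTATTCTgtaggtcactctc
The capitals again mark bases 2 to 8. No member held a match to the miR-100 seed (1.14% of genes did). The let-7a seed had 1 match, in PRRX1, against 10.6% of genes, and the miR-125b seed had 1 match each in SNAI1 and PRRX1, against 15.6%. The sh-MIR100HG-1 guide had 3 matches in ZEB1 and 1 each in SNAI2 and TWIST1, against 18.3% of genes. The sh-MIR100HG-2 guide had 2 matches each in ZEB2 and PRRX1 and 1 each in SNAI2 and VIM, against 19.8%. SNAI2 thus held a match to both guides, and its lower level was seen with sh-MIR100HG-2. Against control, the tested members that matched the sh-MIR100HG-1 guide had log2 fold changes of 0.42 (SNAI2) and 0.36 (ZEB1) for that shRNA. Those with no match to that guide were at 0.80 (CDH2), 0.10 (SNAI1), -0.17 (ZEB2), -0.26 (VIM) and -0.41 (FN1). For sh-MIR100HG-2, the members matched by its guide were at -0.77 (SNAI2), -0.26 (ZEB2) and -0.07 (VIM). The tested members without a match to it were at -0.78 (SNAI1), -0.33 (ZEB1), -0.23 (FN1) and 0.78 (CDH2). A match to 7 bases is a description of the sequence, and whether any of these sites was bound was not tested.

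TWIST1 (ENSG00000122691.12_2, GRCh37 chr7:19060614-19157295, minus strand) and TWIST2 (ENSG00000233608.3_1, GRCh37 chr2:239756673-239832239, plus strand) are basic helix-loop-helix factors of mesoderm and of EMT. TWIST1 had 4 and 18 counts in the controls, 31 and 3 with sh-MIR100HG-1 and 0 and 2 with sh-MIR100HG-2. Most of its counts were in control replicate 2 and sh-MIR100HG-1 replicate 1. The fibroblast marker PDGFRA had 142 and 217 counts in these samples and 0 to 12 in the others. The oestrogen receptor ESR1 had 140 and 185 counts there, against 6 to 25 in the others. The luminal factor FOXA1 had 72 and 81, against 1 to 8, and CDH1 had 415 and 332, against 68 to 148. EPCAM did not follow, with 331 and 776 there and 198 to 550 in the others. PDGFRA, ESR1 and FOXA1 were set beside TWIST1 after their values were seen, and their marker lists did not follow as a whole. The fibroblast marker PDGFRB was also highest there, with 1119 and 1138 counts against 265 to 613. LUM had 32 and 92 counts there against 38 to 124, COL1A2 176 and 178 against 60 to 322, and COL1A1 1013 and 3090 against 1085 to 3906. The luminal KRT19 had 30271 and 21231, against 15699 to 35676. What part these genes have in the TWIST1 counts was not tested. TWIST2 had 8 counts in control replicate 2 and 0 in the other 5 samples, so it was not detectable there at this depth. PRRX1 (ENSG00000116132.11_2, GRCh37 chr1:170631869-170708560, plus strand), a paired-type homeobox factor of mesenchyme, had 6 and 8 counts in the controls, 8 and 2 with sh-MIR100HG-1 and 4 and 2 with sh-MIR100HG-2. With no filter none of the 3 was called in any comparison, and the value of TWIST1 between the shRNAs was a log2 fold change of -3.57 (adjusted p = 0.149), which rests on these few counts.

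VIM (ENSG00000026025.14_2, GRCh37 chr10:17270258-17279592, plus strand) encodes the intermediate filament of mesenchymal cells and had the closest control samples of the tested members. It was at 1772 and 2095 CPM in the controls, 1607 and 1616 CPM with sh-MIR100HG-1 and 1889 and 1805 CPM with sh-MIR100HG-2. Both sh-MIR100HG-1 samples were below both controls and both sh-MIR100HG-2 samples were between them. The knockdown log2 fold change was -0.16 (SE 0.17, 95% interval -0.54 to 0.22, adjusted p = 0.857), the narrowest interval of the 7 tested members. With the shRNAs in turn it was -0.26 and -0.07. The latter was 0.063 without control replicate 2.

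FN1 (ENSG00000115414.18_2, GRCh37 chr2:216225163-216300895, minus strand) encodes fibronectin, a matrix protein that binds integrins. It was at 459 and 800 CPM in the controls, 356 and 592 CPM with sh-MIR100HG-1 and 448 and 622 CPM with sh-MIR100HG-2. In each group replicate 2 was the higher. The knockdown log2 fold change was -0.32 (SE 0.29, 95% interval -1.0 to 0.35, adjusted p = 0.838), with -0.41 and -0.23 for the shRNAs in turn, and it was 0.13 without control replicate 2.

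CDH2 (ENSG00000170558.8_2, GRCh37 chr18:25530930-25757410, minus strand) encodes N-cadherin, the adhesion protein that replaces E-cadherin when cells undergo EMT. It was low, at 1.51 and 0.799 CPM in the controls, 1.34 and 2.69 CPM with sh-MIR100HG-1 and 0.705 and 3.26 CPM with sh-MIR100HG-2, from 32 to 163 counts. Replicate 2 of each shRNA was above both controls, and replicate 1 was not. It had the largest knockdown value of the 7 tested members, a log2 fold change of 0.79, and the widest interval (SE 0.66, 95% interval -0.71 to 2.30, adjusted p = 0.821). The value for sh-MIR100HG-2 was 0.78 and turned to -0.71 without sh-MIR100HG-2 replicate 2. The genes whose log2 CPM followed CDH2 most closely over the 6 samples were CITED2 (Pearson's r = 0.997), PLAC8 (0.992) and RAB3B (0.990), a description over 6 points that share their libraries.

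An exact two-sided permutation test of the log2 CPM of the 4 knockdown samples against the 2 controls gave p = 0.267 for VIM, 0.400 for ZEB2, 0.533 for FN1, 0.600 for CDH2, 0.667 for SNAI1, 0.800 for SNAI2 and 1 for ZEB1. The intervals allow changes of some size. For SNAI2 the knockdown interval reached -0.88 and for CDH2 it reached 2.30 on the log2 scale, while for VIM it ended at -0.54 and 0.22.

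E-cadherin (CDH1), the main target of these repressors, was at 2.76 and 7.05 CPM in the controls, 5.0 and 2.03 CPM with sh-MIR100HG-1 and 1.5 and 2.4 CPM with sh-MIR100HG-2. Its controls were further apart than those of any of the 7 tested members. It was highest in control replicate 2 and sh-MIR100HG-1 replicate 1, the samples that held most of the TWIST1 counts. Both sh-MIR100HG-2 samples and sh-MIR100HG-1 replicate 2 were below both controls. The log2 fold change was -0.90 for the knockdown (SE 0.49, unadjusted p = 0.103, adjusted p = 0.704) and -1.33 for sh-MIR100HG-2 (unadjusted p = 0.0556). On the scale per kb CDH1 was at 0.794 ± 0.492 in the controls (SD, n = 2), below SNAI2 and ZEB1 and above CDH2.

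**Figure D3:**
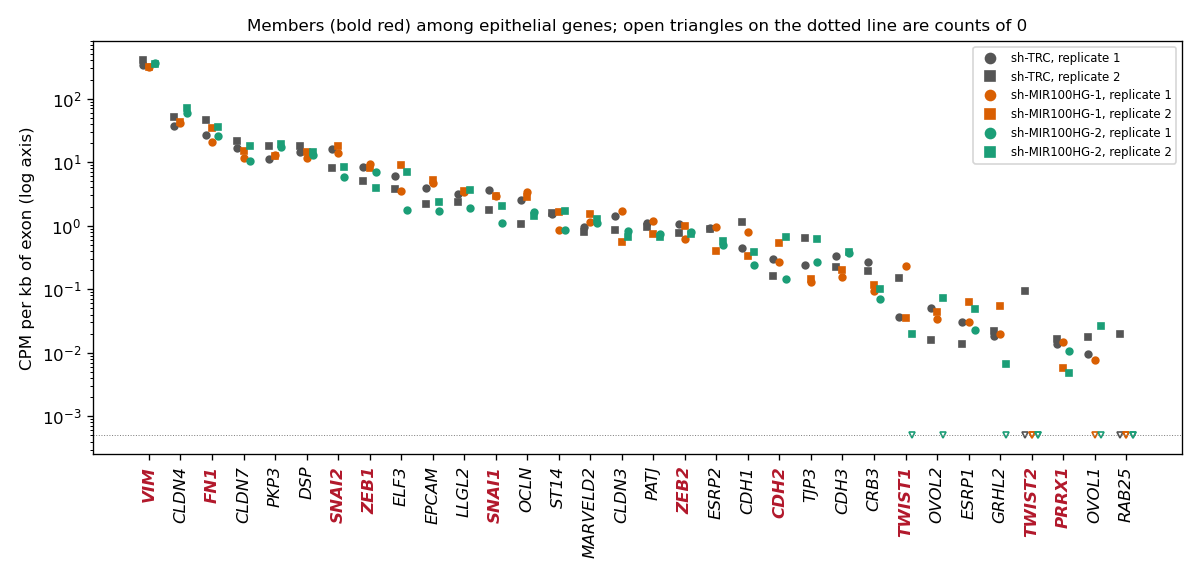
CPM per kb of exon, on a log axis, of the 10 members (bold red names) and 22 epithelial genes in each sample, ordered by level. Open triangles on the dotted line stand for counts of 0. VIM lies above all the epithelial genes drawn, and TWIST1, TWIST2 and PRRX1 lie among the lowest.

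Of 22 epithelial genes listed, 19 were tested, and 0 were called in any comparison. Their median log2 fold change in the knockdown was -0.29, beside -0.04 over all genes and -0.18 over the 7 members, with 8 higher and 11 lower. CRB3, an apical polarity protein, was the only one under an unadjusted p of 0.05, at -1.27, and was named after its value was seen. Between the shRNAs the epithelial genes went both ways, 3 higher and 3 lower at an unadjusted p under 0.05, beside 513 and 940 over all genes. EPCAM, an epithelial adhesion protein, was at 9.77 and 5.62 CPM in the controls, 11.7 and 13.0 CPM with sh-MIR100HG-1 and 4.36 and 5.97 CPM with sh-MIR100HG-2, a log2 fold change between the shRNAs of -1.25 (unadjusted p = 0.00699, adjusted p = 0.509). As in SNAI2, the sh-MIR100HG-2 samples lay near control replicate 2, but control replicate 1 was below both sh-MIR100HG-1 samples. The tight junction protein OCLN (-1.01) and the epithelial factor GRHL2 (-3.26, on 8 and 14 counts with sh-MIR100HG-1 against 0 and 2) were also lower with sh-MIR100HG-2, and CLDN4 (0.62), TJP3 (1.67) and the P-cadherin gene CDH3 (1.10) were higher.

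Of 16 other EMT transcription factors, 13 were tested and 0 were called, with 5 higher and 8 lower in the knockdown and a median of -0.11. ETS1, a factor of invasive breast cells, was at 324 CPM in both controls, 443 and 560 CPM with sh-MIR100HG-1 and 614 and 600 CPM with sh-MIR100HG-2. All 4 knockdown samples were above both controls, with a log2 fold change of 0.77 (SE 0.18, unadjusted p = 0.00275, adjusted p = 0.447). SOX4, at -0.93, and PRRX2, at -2.24 on very few counts, were the others under 0.05. SNAI3, the remaining SNAI paralogue, was at 0.422 to 1.06 CPM, and its values were -0.11 for the knockdown and 1.03 between the shRNAs (unadjusted p = 0.0911), the sign opposite to that of SNAI1 and SNAI2. Between the shRNAs, SOX9 (-0.59) and PRRX2 (2.26) were under 0.05.

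Of 28 other mesenchymal products, 25 were tested and 0 were called, with 10 higher and 15 lower in the knockdown and a median of -0.19. CALD1, caldesmon, an actin-binding protein, was at 130 and 116 CPM in the controls, 80.5 and 76.9 CPM with sh-MIR100HG-1 and 70.1 and 44.1 CPM with sh-MIR100HG-2. Its 4 knockdown samples were below both controls, with a log2 fold change of -0.87 (SE 0.22, unadjusted p = 0.00352, adjusted p = 0.447). The receptor kinase AXL (0.42) and moesin, MSN (0.43), had values in the other direction at an unadjusted p under 0.05. Between the shRNAs 4 were higher and 0 lower with sh-MIR100HG-2 at that threshold, beside 513 higher and 940 lower over all 15372 genes. They were the fibronectin receptor subunit ITGA5 (0.93), S100A4 (1.01), CD44 (0.58) and SPARC (0.98), the last named after its value was seen. The signs of these 4 were opposite to those of SNAI1, SNAI2 and ZEB1. Control replicates 1 and 2 were themselves apart for S100A4 (229 and 598 CPM) and ITGA5 (322 and 647 CPM). They were closer for CD44 (687 and 828 CPM) and SPARC (3.98 and 4.13 CPM).

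Corepressors through which the SNAI and ZEB factors act, and enzymes that act on the SNAI1, SNAI2, TWIST1 or ZEB1 protein, were listed as well. All 14 corepressor genes were tested and 0 were called, with a knockdown median of 0.13. RCOR1 (CoREST), a partner of the demethylase that SNAI1 recruits, was at 85.7 and 89.5 CPM in the controls, 54.3 and 33.2 CPM with sh-MIR100HG-1 and 67.3 and 39.6 CPM with sh-MIR100HG-2, a log2 fold change of -0.86 (SE 0.27, unadjusted p = 0.0125, adjusted p = 0.545). The Polycomb genes SUZ12 (-0.97) and EZH2 (-0.50) were under 0.05 between the shRNAs. Of 17 kinases, phosphatases and ubiquitin enzymes that act on these factors, 16 were tested and 0 were called, with 13 higher and 3 lower in the knockdown and a median of 0.26, beside 7017 higher and 8355 lower over all genes tested and a median of -0.04.

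FBXW7, a substrate receptor of an SCF ubiquitin ligase, was at 31.4 and 26.2 CPM in the controls, 49.1 and 58.9 CPM with sh-MIR100HG-1 and 50.2 and 50.4 CPM with sh-MIR100HG-2. The 4 knockdown samples were above both controls, and the log2 fold change was 0.86 (SE 0.20, unadjusted p = 0.00235, adjusted p = 0.446). FBXO45, another F-box protein, was at 0.64 (unadjusted p = 0.00757). DUSP1, a MAP kinase phosphatase that is quickly induced by stress, was at 625 and 80.6 CPM in the controls, 562 and 935 CPM with sh-MIR100HG-1 and 79.7 and 243 CPM with sh-MIR100HG-2. Control replicate 1 was on the side of sh-MIR100HG-1 and control replicate 2 on that of sh-MIR100HG-2, as in SNAI1, SNAI2 and ZEB1, and its part in those values was not tested. The log2 fold change of DUSP1 between the shRNAs was -2.21 (unadjusted p = 0.0305, adjusted p = 0.509), and that of the kinase ATM was -1.19.

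**Figure D4:**
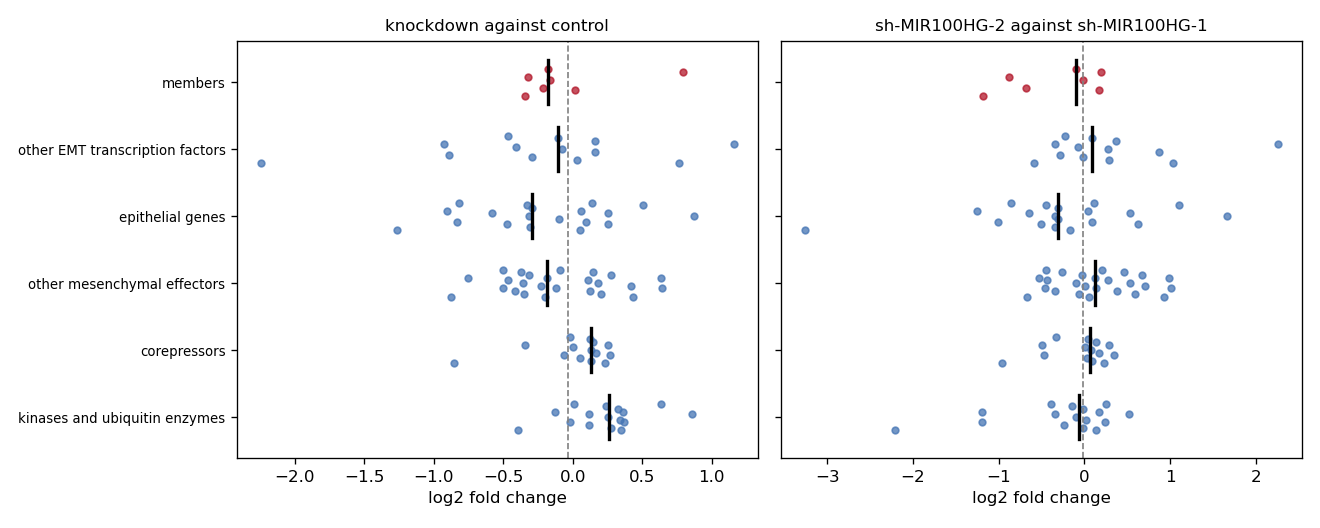
Fitted log2 fold changes of each gene tested (points) for the 7 members and the 5 gene lists, for the knockdown against control (left) and between the shRNAs (right). Black bars are list medians and the dashed line is the median of all genes tested, -0.04 and -0.01. The members' medians were -0.18 and -0.09.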

How the data were processed

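RNA-seq of 6 MDA-MB231 samples was analysed from the raw counts per gene that the authors deposited. They trimmed barcodes, checked quality with FASTQC, aligned reads with STAR (2.5.2a in the submitters' processing notes, another version in the methods) to GRCh37 and counted exon reads per GENCODE gene with FeatureCounts. Strand and multi-mapping settings are not given in the sources used here. Gene symbols were matched for 26966 of 27745 genes.

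A gene was dropped where 3 or more samples had under 5 counts, which left 15372 genes. The counts were TMM-normalized and fitted over all 3 groups with edgeR 4.0.16 in R 4.3.3 (quasi-likelihood test, 3 residual and 5.37 prior degrees of freedom), p-values being adjusted over all genes tested and called at 0.05. Intervals of 95% used the unshrunk coefficients and the moderated degrees of freedom. Alternatives were edgeR's likelihood ratio test, DESeq2 1.42.0, other normalization and filters, a replicate block and leaving out each sample. The scripts were tested on simulated data. Seed matches were searched on the transcript strand in GENCODE v44lift37.

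The members and gene lists were chosen with earlier results of these data known. All tested members were named, and from each other list the genes with an unadjusted p under 0.05 in the knockdown or between the shRNAs, at most 6 by smallest p.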

Additional observations from a re-analysis of the deposited data

How the results depend on the processing

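No gene was called with the bias-adjusted quasi-likelihood fit, RLE normalization, filterByExpr or the replicate block (0 genes in each of the 4 comparisons). The likelihood ratio test called 109 genes in the knockdown, 34 with sh-MIR100HG-1, 121 with sh-MIR100HG-2 and 91 between the shRNAs. DESeq2 called 130, 66, 167 and 103 in the same order, and no filter on low counts 392, 227, 517 and 679. Leaving out 1 sample gave 0 to 1, 0 to 3, 0 to 5 and 0 to 7. Of 399 member values under the alternatives, 371 kept direction and side of the threshold, 27 reversed and 1 passed it, SNAI2 between the shRNAs with no filter (log2 fold change -1.16, adjusted p = 0.00792). The cause was not tested.

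The replicate numbers were not taken to pair the samples, since not all of the correlations of same-numbered deviations were above 0.1. They were -0.213 between control and sh-MIR100HG-1, 0.0219 between control and sh-MIR100HG-2 and 0.497 between the shRNAs, where the limit was passed. With the replicate block SNAI2 between the shRNAs was at -1.18 (adjusted p = 0.293). With the control numbers crossed, an alternative chosen after seeing the data, 0 genes were called in each comparison, and ZEB1 in the knockdown was at -0.0041.

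CDH2 between the shRNAs, near 0, turned to 0.014 by DESeq2, 0.036 with the bias-adjusted fit, 0.017 with RLE and 0.0073 with no filter. Leaving out each sample in turn, some log2 fold changes reversed. In the knockdown the range was -0.78 to 0.29 for SNAI1, -0.60 to 0.42 for SNAI2, -0.31 to 0.43 for ZEB1, -0.43 to 0.045 for ZEB2 and -0.67 to 0.13 for FN1. With sh-MIR100HG-1 it was -0.34 to 0.73 for SNAI1, -0.0048 to 1.01 for SNAI2, -0.57 to 0.15 for ZEB2 and -0.83 to 0.045 for FN1. With sh-MIR100HG-2 it was -0.79 to 0.090 for ZEB1, -0.18 to 0.063 for VIM, -0.71 to 1.5 for CDH2 and -0.58 to 0.22 for FN1. Between the shRNAs it was -0.41 to 0.32 for ZEB2, -1.5 to 0.70 for CDH2 and -0.15 to 0.61 for FN1.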
